A study of Mus musculus with 22 samples.

Results

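The formative and primed epiblast genes described here are Fgf5, Otx2, Pou3f1, Sall2, Zic2, Foxd3, Cdh2, Sox4 and Fzd2. They are 9 of the 44749 entries (genes and repeat families) of the deposited count table. They were listed by name, with earlier results of these data known. RNA was sequenced in 22 libraries from male mouse embryonic stem cells (ESCs) of 129 background, kept without feeder cells in serum and LIF. 8 libraries came from Ythdc1 conditional knockout (cKO) ESCs, given 4OHT, a ligand used to switch on inducible Cre recombinases (4 libraries), or the solvent DMSO (4 libraries), and are called the set without Dux labels. 4 libraries were labelled Mettl3 KO or WT (2 of each). In 8 more, Ythdc1 cKO ESCs also carried the label Dux-Het (Dux+/-) or Dux-KO (Dux-/-), each with 4OHT or DMSO (2 libraries per group), and 1 further pair (4OHT and DMSO) was sampled with that series but without a Dux label. Every library outside the Mettl3 set thus carries the Ythdc1 cKO alleles, the DMSO controls included. The labels name 2 ESC lines in the set without Dux labels, but the columns of the count table do not, and the labels give neither the Cre driver nor the length of treatment. The labels do not say whether libraries of 1 group were grown as separate cultures, and p-values then describe only how far these samples spread, which may be technical.

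Ythdc1 is a nuclear protein that binds the RNA modification N6-methyladenosine (m6A), Mettl3 is the catalytic subunit of the enzyme that writes it, and Dux is a transcription factor that switches on genes of the early cleavage-stage embryo. Naive ESCs resemble the epiblast before implantation. On their way to lineage choice, cells pass through a formative state and then a primed state, in which naive factors are switched off and genes such as Fgf5, Otx2 and Pou3f1 are switched on. Fgf5 is a secreted fibroblast growth factor and the classical marker of that exit. Otx2 and Pou3f1 (Oct6) are transcription factors of the formative programme. Sall2, Zic2 and Sox4 are transcription factors shared with neural and other progenitors, and Foxd3 is a forkhead factor needed in the epiblast and in neural crest. Cdh2 is N-cadherin, the adhesion protein that replaces E-cadherin (Cdh1) as epithelial cells leave the epiblast, and Fzd2 is a Frizzled receptor for Wnt ligands.

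Because both perturbed proteins act on m6A, the transcripts were searched for GGACT (read with U for T in RNA), a common form of the m6A consensus, on the sense strand of the longest coding transcript of each gene in GENCODE vM21. One match per gene is shown, the one nearest to the stop codon, with 10 bases on each side and the match in capitals, 5′ to 3′ on the transcript strand, positions on GRCm38 (mm10).
Otx2, chr14:48658965-48658989, minus strand, coding: ttgggggcatGGACTgtggatctta
Pou3f1, chr4:124659053-124659077, plus strand, 3′ UTR: gtgaccctgcGGACTgggttccccg
Sall2, chr14:52311950-52311974, minus strand, 3′ UTR: gacaagtgaaGGACTgggatccttt
Zic2, chr14:122476046-122476070, plus strand, coding: ggggcttcggGGACTcggcgccggg
Foxd3, chr4:99658148-99658172, plus strand, 3′ UTR: acccaatcctGGACTctgctacccg
Sox4, chr13:28951769-28951793, minus strand, coding: tcgaattcccGGACTattgcacgcc
Fzd2, chr11:102606478-102606502, plus strand, 3′ UTR: tcccaggtccGGACTgcaccgtgcc
Counted in bases from the first base of the stop codon, the A of the nearest match lies at 11 in Pou3f1, 15 in Cdh2 and 48 in Fzd2. It lies at 128 in Foxd3, 762 in Sall2, -80 in Sox4, -269 in Otx2 and -1205 in Zic2, with negative values before the stop codon. The match in Zic2 lies in the coding sequence. Fgf5 has no match in 2501 bases. Cdh2 has 6 matches and its sequence is not printed. Among 19993 coding genes 89.3% hold a match, so its presence is common. Per kb of transcript, Sox4 held the most of the 9 (9 matches, 1.88 per kb) and Fzd2 the fewest above 0 (2 matches, 0.55 per kb), beside a median of 1.03 over all coding genes. A match is a description of the letters and no measure of methylation.

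The table held 24955414 to 54139132 counts per library, and levels are CPM, counts scaled to a common library total by 1 scaling over all 22 libraries. Libraries of 1 group differed by more than counting error in every one of 18 pairs (chi-square per degree of freedom 3.74 to 99.1). Replicate 1 of the DMSO libraries without Dux labels differed most from the other 3 of its group (31.0 to 37.1, against 8.44 to 10.8 among them). In the set without Dux labels Ythdc1 counts were lower with 4OHT (49.0 to 62.8 CPM against 70.8 to 80.2 CPM, log2 fold change -0.41, adjusted p = 0.00064) and did not reach 0. In the Dux series Ythdc1 did not pass (Dux-Het -0.28, adjusted p = 0.456; Dux-KO -0.09, adjusted p = 0.843), so there the counts do not check the treatment label. Mettl3 counts were 14.5 and 28.4 CPM in the libraries labelled Mettl3 KO and 29.0 and 29.9 CPM in WT (adjusted p = 0.207). The counts thus do not check that label, and directions below are those of the labelled libraries. Ythdc1 was higher in the libraries labelled Mettl3 KO than in WT (0.82, SE 0.09, adjusted p = 0.000235 by edgeR). All 4 general pluripotency genes (Pou5f1, Sox2, Sall4 and Lin28a) and all 16 naive genes listed were detected strongly enough to be tested in each set. The labels of the series with Dux genotypes disagree with its titles by 1 sample, and the titles were used. Duxf3, the entry that holds Dux, had 1 to 5 counts in the Dux-KO libraries and 48 and 68 counts in Dux-Het with 4OHT. With DMSO it did not pass between Dux-KO and Dux-Het (log2 fold change -0.45, SE 0.84), so the counts check the Dux label only with 4OHT. In bulk RNA, fewer cells that express a gene and less RNA per cell cannot be told apart.

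**Figure D1:**
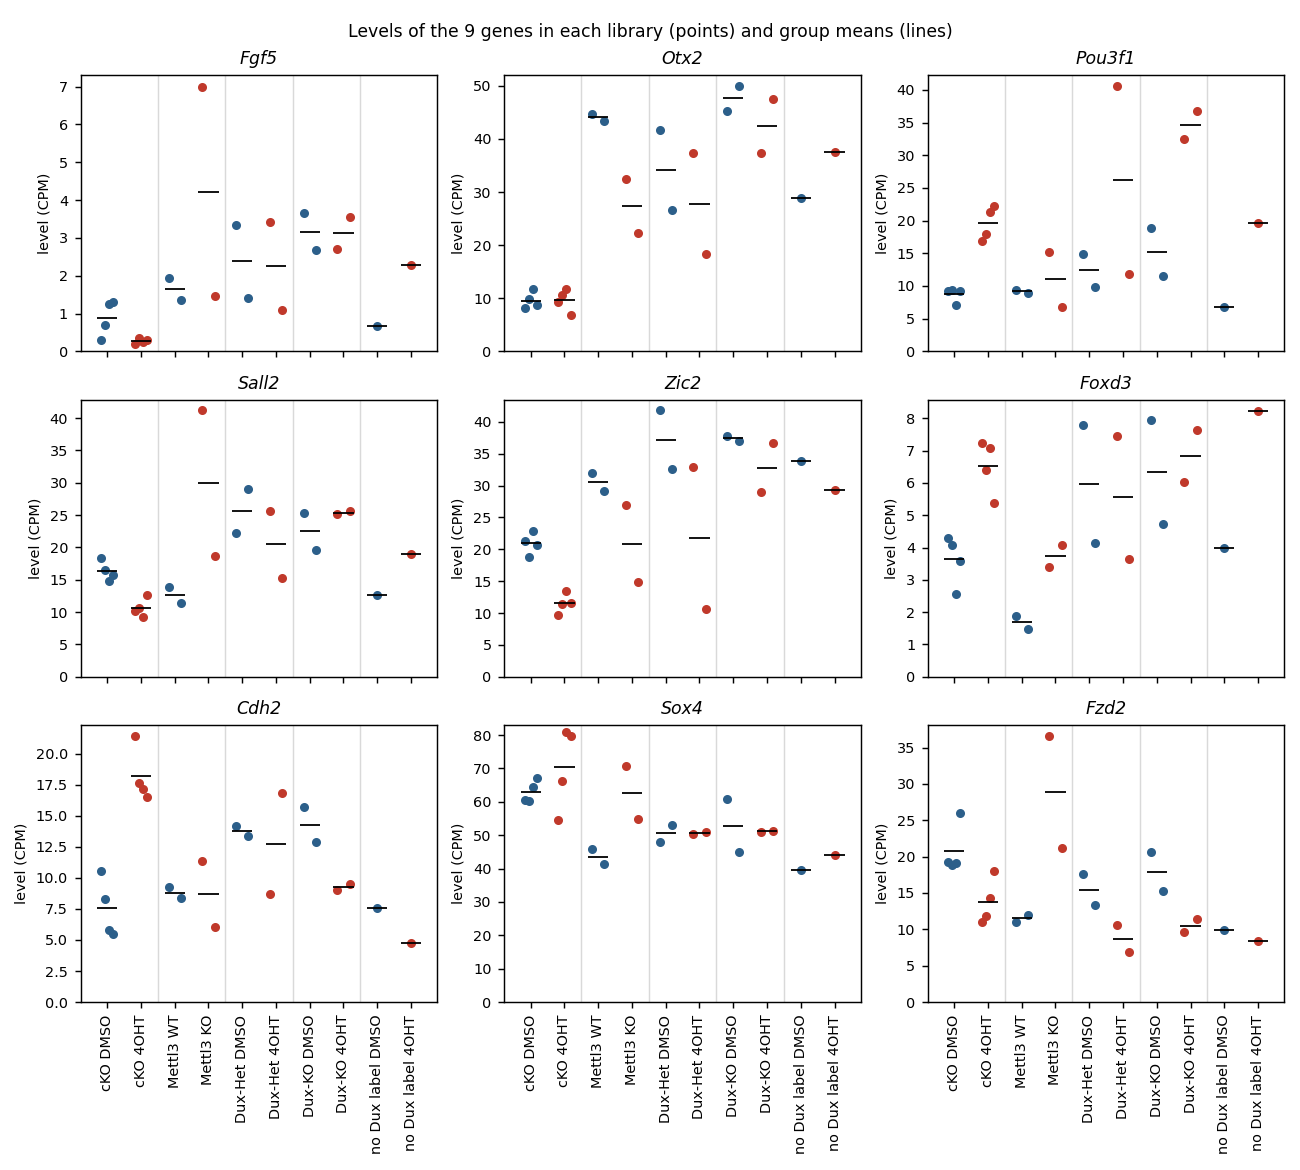
Level of each gene in CPM (y axis from 0) in every library (points) of the 10 groups (x axis), with group means as lines and controls in blue. Pou3f1 is higher with 4OHT in the set without Dux labels, and Otx2 in that set lies below its level in every library of the other sets.

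The 9 genes were not expressed at 1 level. In CPM per kb of exon, with DMSO and no Dux label, Sox4 had the highest level (13.2 ± 0.675, SD, n = 4) and Fgf5 the lowest (0.355 ± 0.193). Between them stood Zic2 (7.27 ± 0.595), Fzd2 (5.69 ± 0.948), Sall2 (3 ± 0.277), Pou3f1 (2.27 ± 0.277), Otx2 (2.27 ± 0.372), Foxd3 (1.56 ± 0.329) and Cdh2 (0.937 ± 0.296). In that order the neighbours Zic2 and Fzd2, Pou3f1 and Otx2, and Foxd3 and Cdh2 overlapped in their libraries, and the other neighbours did not. Otx2 ranked higher in the controls of the other sets, at 10.4 ± 0.220 CPM per kb in Mettl3 WT (n = 2) and 11.3 ± 0.782 in Dux-KO with DMSO (n = 2). The sets are separate series of cells and libraries, which cannot be told apart, and no test was made between them.

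To ask what loss of Ythdc1 does to these genes, 4OHT was compared with DMSO in the 4 against 4 libraries without Dux labels. The genes did not move as a block: Pou3f1, Foxd3 and Cdh2 rose and Fgf5, Sall2, Zic2 and Fzd2 fell, while Otx2 and Sox4 did not pass the threshold (adjusted p of 0.05, edgeR's quasi-likelihood test over 24385 entries). In this comparison 23.7% of all entries tested rose and 21.4% fell, beside 3 and 4 of the 9 genes. The median log2 fold change was 0.03 over the 9 genes and 0.02 over all entries.

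Pou3f1 (chromosome 4, 124656807 to 124660655, a single exon) stood at 9.25, 9.32, 7.16 and 9.29 CPM with DMSO and at 16.8, 18, 21.3 and 22.2 CPM with 4OHT. All 4 libraries with 4OHT were above all 4 with DMSO. The rise was 2.27-fold (log2 fold change 1.18, SE 0.12, adjusted p = 5.93e-07). Cdh2 (chromosome 18, 16588877 to 16809246, up to 16 exons) stood at 10.6, 8.34, 5.80 and 5.51 CPM with DMSO and at 21.5, 17.7, 17.2 and 16.5 CPM with 4OHT. Its groups did not overlap either, and it rose 2.45-fold (1.29, SE 0.17, adjusted p = 1.08e-05). Foxd3 (chromosome 4, 99656299 to 99658622, a single exon) was low, at 4.29, 4.07, 2.57 and 3.59 CPM with DMSO and 7.22, 6.40, 7.08 and 5.38 CPM with 4OHT. It rose 1.82-fold without overlap (0.87, SE 0.17, adjusted p = 0.000454).

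Among the genes that fell, Zic2 (chromosome 14, 122475435 to 122479852) went from 21.3, 18.8, 22.9 and 20.7 CPM with DMSO to 9.62, 11.5, 13.5 and 11.6 CPM with 4OHT. The highest 4OHT library was below the lowest DMSO library, and the log2 fold change was -0.84 (SE 0.11, adjusted p = 9.8e-06). Sall2 (chromosome 14, 52311172 to 52328762) went from 18.3, 16.4, 14.8 and 15.7 CPM to 10.2, 10.6, 9.30 and 12.6 CPM, again without overlap (-0.59, SE 0.11, adjusted p = 0.0003). Fzd2 (chromosome 11, 102604396 to 102608058, a single exon) went from 19.3, 18.9, 19.1 and 26.0 CPM to 11.1, 11.8, 14.2 and 18.1 CPM. Its groups came close, at 18.1 CPM with 4OHT and 18.9 CPM with DMSO, and the log2 fold change was -0.58 (SE 0.14, adjusted p = 0.00371 by edgeR).

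Fgf5 (chromosome 5, 98254184 to 98277030) had few counts in this set, with 12 to 50 counts in DMSO libraries and 10 to 16 in 4OHT libraries. Its levels were 0.289, 0.701, 1.26 and 1.30 CPM with DMSO and 0.206, 0.344, 0.245 and 0.311 CPM with 4OHT. The groups overlapped through DMSO replicate 1, the library that stood apart, and Fgf5 fell by 1.65 in log2 (SE 0.48, adjusted p = 0.00992). Otx2 (chromosome 14, 48657677 to 48673819) stood at 8.14, 9.78, 11.7 and 8.67 CPM with DMSO and at 9.29, 10.7, 11.8 and 6.78 CPM with 4OHT, with a log2 fold change of 0.03 (SE 0.16, adjusted p = 0.882). Sox4 (chromosome 13, 28948919 to 28953713, a single exon) stood at 60.7, 60.2, 64.4 and 67.0 CPM with DMSO and at 54.5, 66.3, 80.9 and 79.8 CPM with 4OHT. Its log2 fold change was 0.18 (SE 0.10, adjusted p = 0.166), and in the fit with a replicate block it was 0.16 and passed (adjusted p = 0.0454). Without replicate 1 of the 4OHT libraries, the lowest, it was 0.28 and also passed (adjusted p = 0.0116). The other 8 genes kept their call under the block, and the 7 calls held in all 13 alternative fits.

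**Figure D2:**
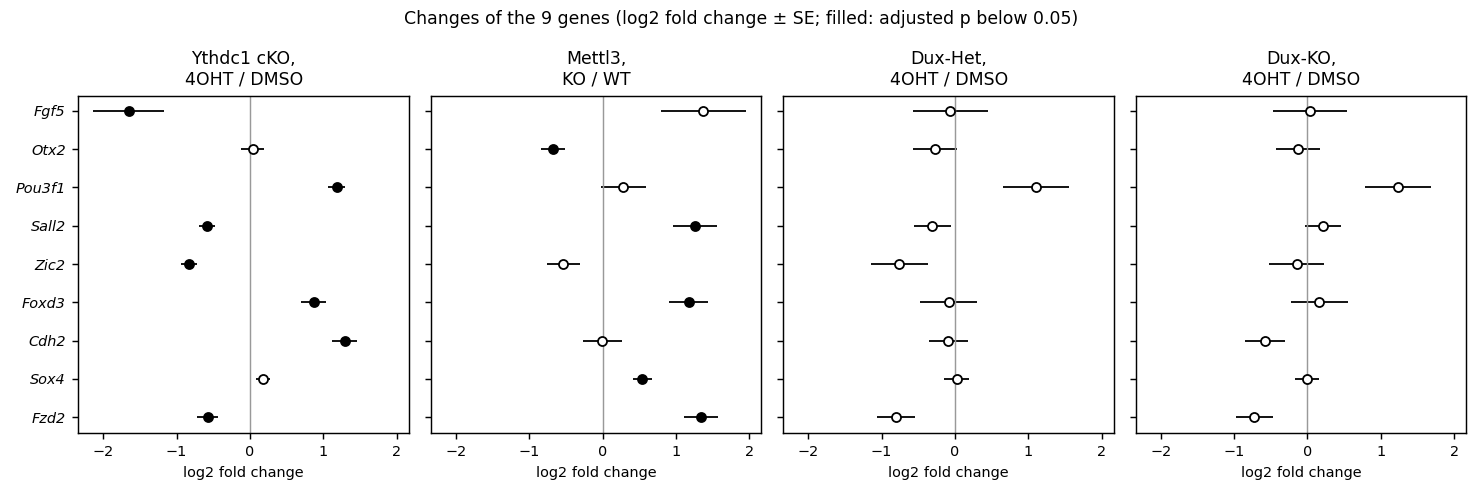
log2 fold change (x axis) of each gene (y axis) in 4 comparisons, with the standard error as bars and filled points where the adjusted p was below 0.05. Pou3f1 lies to the right of 0 in each panel, and Fzd2 lies left of 0 with 4OHT in 3 panels and right of 0 in the libraries labelled Mettl3 KO.

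4 of the 9 genes share bases with a gene on the opposite strand, and whether counting used strand is not given in the sources used, so whether reads of such partners were kept apart is unknown. Otx2os1, a long noncoding RNA overlapping Otx2 by 5112 bases, rose with 4OHT from 0.0482 to 0.216 CPM with DMSO to 0.563 to 0.619 CPM, a log2 change of 2.09 (SE 0.50, adjusted p = 0.00283 by edgeR). It stayed far below Otx2 itself. Gm26735, which overlaps Sox4 by 2753 bases, was itself abundant (32.5 to 46.2 CPM over the 8 libraries) and did not pass (0.16, adjusted p = 0.178). On the same strand, Gm49154 shares 1726 bases with Otx2 and the miRNA gene Gm23366 shares 89 bases with Foxd3. The opposite partners of Pou3f1 (Gm2164) and Cdh2 (Gm15485) were at or below 0.715 CPM in these 8 libraries.

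Other genes of the same stage also went both ways. Of 22 further formative and primed epiblast genes, all tested, 9 rose and 9 fell (median log2 fold change 0.12). The largest rises were in Etv4, an ETS factor downstream of FGF signalling (1.75, SE 0.17), Tcf15 (1.05, SE 0.14), a basic helix-loop-helix factor, and Myc (1.00, SE 0.18). The largest falls were in the growth factor Fgf15 (-1.5, SE 0.26), in Zic5 (-1.18, SE 0.13) and in Sox3 (-1.11, SE 0.20), with adjusted p-values of 1.49e-06 to 0.000285 by edgeR. Among 16 naive pluripotency genes 3 rose and 8 fell (median -0.29): Prdm14 (-1.54, SE 0.24), Tcl1 (-1.48, SE 0.14) and Nanog (-1.45, SE 0.09) fell most, and Klf5 (0.75, SE 0.09), Tbx3 (0.64, SE 0.09) and Tdh (0.37, SE 0.06) rose. Neither Pou5f1 (-0.17, adjusted p = 0.0936) nor Sox2 (0.04, adjusted p = 0.679) passed. Cdh1, the cadherin of naive cells, rose together with Cdh2 (0.30, SE 0.07, adjusted p = 0.00164).

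Of the paralogs of the 9 genes, 18 of 23 could be tested, and 5 rose and 8 fell. Among the Frizzled receptors, Fzd9 (-1.46, SE 0.19) and Fzd3 (-0.99, SE 0.08) fell with Fzd2, whereas Fzd1 rose (0.87, SE 0.22, adjusted p = 0.00369 by edgeR). Sall3 rose (1.04, SE 0.22), as did Pou3f3, a paralog of Pou3f1 (0.95, SE 0.36, adjusted p = 0.0414), and Sox12 (-0.89, SE 0.07) fell while its relative Sox4 did not pass. Markers of other cell types moved in the same libraries, and their part in these results was not tested. 6 of 8 primitive endoderm markers rose (summed 106 to 140 CPM with DMSO and 192 to 321 CPM with 4OHT, none at 0 in either group). 3 of 6 neural crest markers rose (18.3 to 20.7 CPM and 35.7 to 56.5 CPM, none at 0) and none fell. Among neural markers 1 of 8 rose and 2 fell (106 to 163 CPM and 131 to 154 CPM, 1 at 0 with DMSO). Among mesoderm and streak markers 2 of 8 rose and 2 fell (16.9 to 22.1 CPM and 23.9 to 30.9 CPM, none at 0). Fibroblast markers gave 2 rises and 2 falls of 8 (102 to 148 CPM and 203 to 277 CPM, none at 0), and trophectoderm markers 2 rises and 1 fall of 6 (38.2 to 47.0 CPM and 43.4 to 61.4 CPM, none at 0).

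**Figure D3:**
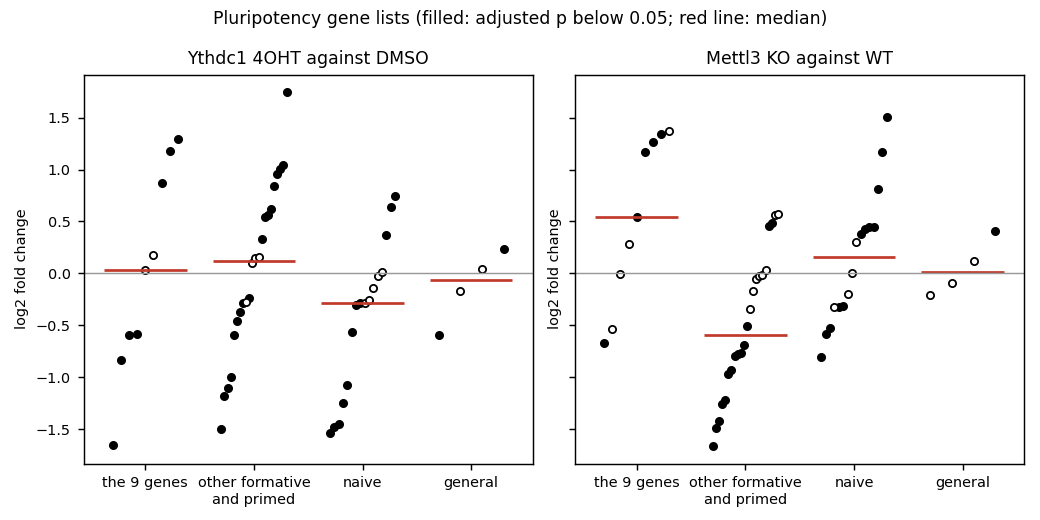
log2 fold change (y axis) of every gene tested in 4 lists (x axis) with 4OHT against DMSO (left) and in libraries labelled Mettl3 KO against WT (right), with filled points where the adjusted p was below 0.05 and red lines at the medians. The other formative and primed genes have a median of 0.12 on the left and of -0.60 on the right, and the 9 genes have medians of 0.03 and 0.54.

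For loss of the m6A writer, the 2 libraries labelled Mettl3 KO were compared with the 2 labelled WT. Sall2, Foxd3, Sox4 and Fzd2 rose and Otx2 fell, while Fgf5, Pou3f1, Zic2 and Cdh2 did not pass. Of 23977 entries tested 16.4% rose and 14.9% fell. The median log2 fold change was 0.54 over the 9 genes and 0.02 over all entries. The 2 libraries labelled Mettl3 KO differed from each other in these genes: the higher was above the lower by 1.82 times at the median of the 9 genes and by up to 4.76 times, against 1.14 times at the median of all 18835 entries with a mean of at least 1 CPM.

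Fzd2 stood at 11 and 12 CPM in WT and at 36.6 and 21.1 CPM in KO, a rise of 2.53-fold (1.34, SE 0.23, adjusted p = 0.00204). Sall2 stood at 13.8 and 11.4 CPM in WT and at 41.2 and 18.7 CPM in KO (1.26, SE 0.30, adjusted p = 0.0113). In both genes KO replicate 1 was the higher. Foxd3 stood at 1.89 and 1.47 CPM in WT and at 3.40 and 4.09 CPM in KO (1.17, SE 0.27, adjusted p = 0.00958), and here replicate 2 was the higher. Sox4 stood at 45.8 and 41.3 CPM in WT and at 70.7 and 54.8 CPM in KO (0.54, SE 0.13, adjusted p = 0.0119). Otx2 fell from 44.8 and 43.5 CPM to 32.4 and 22.4 CPM (-0.67, SE 0.16, adjusted p = 0.0111). Groups did not overlap in any of these 5 genes, nor in Zic2, which did not pass. With 2 libraries per group, a lack of overlap thus does not set the called genes apart.

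Fgf5 stood at 1.93 and 1.37 CPM in WT and at 6.98 and 1.47 CPM in KO, so the log2 fold change of 1.38 (SE 0.59, adjusted p = 0.106) came from KO replicate 1 and turned to -0.15 without it. Pou3f1 stood at 9.43 and 8.92 CPM in WT and at 15.3 and 6.78 CPM in KO (0.28, SE 0.31, adjusted p = 0.532), and its KO libraries lay on either side of WT. Cdh2 did the same, at 9.24 and 8.35 CPM in WT and at 11.3 and 6.05 CPM in KO (0.00, SE 0.26, adjusted p = 0.999). Zic2 stood at 32.0 and 29.2 CPM in WT and at 26.9 and 14.8 CPM in KO (-0.54, SE 0.23, adjusted p = 0.103), without overlap. Without KO replicate 1 the log2 fold change was -1.03 for Zic2 and -0.53 for Cdh2. Without KO replicate 2 it was 2.09 for Fgf5 and 0.74 for Pou3f1. Each of these fits left 1 KO library, so the spread between replicates came from the WT libraries alone. All 5 calls were lost when either WT library was left out, where adjusted p ran from 0.0635 to 0.205 by edgeR. The Sall2 call was also lost with DESeq2 (adjusted p = 0.0787), and those of Sall2 (0.0667) and Sox4 (0.0532) without the filter on low counts.

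Among the 22 further formative and primed genes 2 rose and 12 fell in this comparison (median -0.60). Nkd1, an inhibitor of Wnt signalling (-1.66, SE 0.33), the growth factor Bmp4 (-1.49, SE 0.17) and Lef1, a Wnt effector (-1.42, SE 0.23), fell most, and Rbpj (0.49, SE 0.12) and Grhl2 (0.46, SE 0.13) rose. Of 16 naive genes 7 rose and 5 fell (median 0.15), led by Tbx3 (1.5, SE 0.12), Klf2 (1.17, SE 0.10) and Prdm14 (0.81, SE 0.16), and Dppa3 (-0.80, SE 0.19), Klf5 (-0.58, SE 0.11) and Fbxo15 (-0.52, SE 0.14) fell most. Nanog rose by 0.45 (SE 0.08, adjusted p = 0.00321 by edgeR), and neither Pou5f1 (0.12, adjusted p = 0.308) nor Sox2 (-0.21, adjusted p = 0.224) passed. Cdh1 fell (-0.34, SE 0.09, adjusted p = 0.0199). Of the 17 paralogs tested 7 rose and 3 fell, and Sall3 (2.78, SE 0.25), Fzd1 (2.15, SE 0.44) and Fzd6 (1.18, SE 0.13) rose most, while Sall1 (-0.42, SE 0.09), Fzd5 (-0.38, SE 0.10) and Cdh1 fell. Neural markers, 3 of 8 of which fell and none rose, summed to 118 to 124 CPM in WT and 48.0 to 78.2 CPM in KO (1 at 0 in each group). Primitive endoderm markers, 2 of 8 of which rose, summed to 57.6 to 62.6 CPM and 99.2 to 124.5 CPM (none at 0). Of mesoderm and streak markers, T (-2.47, SE 0.42) and Wnt3 (-1.89, SE 0.40) fell and Snai1 (2.16, SE 0.42) rose, and the 8 summed to 11.5 to 12.4 CPM and 10.7 to 12.8 CPM (1 at 0 in each group). Fibroblast markers (3 of 8 fell) summed to 140 to 145 CPM and 54.8 to 118 CPM, neural crest markers (2 of 6 rose) to 12.8 to 14.4 CPM and 17.0 to 27.9 CPM, and trophectoderm markers (3 of 6 rose) to 24.9 to 25.5 CPM and 30.7 to 35.1 CPM. Their part in these results was not tested.

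The effect of 4OHT on Ythdc1 cKO cells and the effect of the Mettl3 KO label were then compared directly, as a difference of log2 fold changes in 1 fit of 12 libraries that shares no control between the effects. 6 of the 9 genes differed: Otx2, Pou3f1 and Cdh2 were higher in the Ythdc1 effect and Fgf5, Sall2 and Fzd2 lower, beside 13.7% and 11.6% of 28260 entries. Fzd2, which fell in the one and rose in the other, differed by -1.88 (SE 0.29, adjusted p = 7.41e-05). Sall2 went opposite ways too (-1.82, SE 0.30, adjusted p = 0.000131). For Fgf5 the difference was -2.98 (SE 0.78, adjusted p = 0.00788), and without KO replicate 1 it was -1.48 (adjusted p = 0.211). Cdh2 differed by 1.33 (SE 0.33, adjusted p = 0.00579), Pou3f1 by 0.94 (SE 0.30, adjusted p = 0.0277) and Otx2 by 0.75 (SE 0.26, adjusted p = 0.0383). Leaving out KO replicate 2 took these 3 calls away (adjusted p of 0.0543, 0.207 and 0.247 by edgeR), and leaving out either WT replicate took away those of Pou3f1 and Otx2 (0.0816 to 0.136). The call of Otx2 was lost in 5 further fits that left out 1 library of the Ythdc1 set (0.0662 to 0.0756), and that of Fgf5 without WT replicate 2 (0.0504). Foxd3 rose in both comparisons and its effects were not shown to differ (-0.27, SE 0.32, adjusted p = 0.604), nor were those of Zic2 (-0.26, SE 0.24) and Sox4 (-0.32, SE 0.18).

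**Figure D4:**
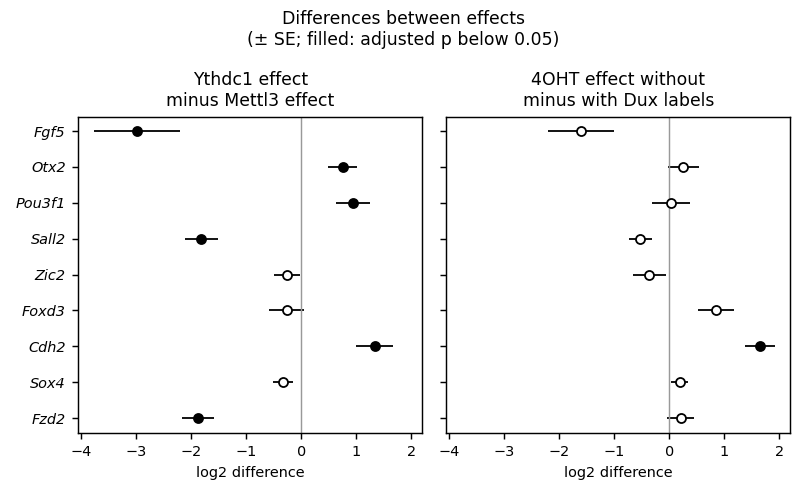
Difference between log2 fold changes (x axis) of each gene (y axis), with the standard error as bars and filled points where the adjusted p was below 0.05, for the Ythdc1 effect minus the Mettl3 effect (left) and for the 4OHT effect without minus with Dux labels (right). 6 genes pass on the left, and Cdh2 at 1.64 passes on the right.

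To ask whether the changes depend on Dux, libraries labelled 4OHT were compared with those labelled DMSO within Dux-Het and within Dux-KO cells (2 against 2 libraries each, with 1 shared estimate of the spread). None of the 9 genes passed in either by edgeR, where 4.99% of 29322 entries rose and 4.34% fell in Dux-Het and 5.5% rose and 4.36% fell in Dux-KO. At an unadjusted p below 0.05 there were 2 in each, Pou3f1 and Fzd2, beside 7389 of 29322 entries in Dux-Het and 7808 in Dux-KO. DESeq2 called 1 in each, Fzd2, beside 3322 and 3607 entries. Without the filter on low counts edgeR called 3 in Dux-Het (Pou3f1, Zic2 and Fzd2) and 2 in Dux-KO (Pou3f1 and Fzd2). More of all entries were then called too, as given in the last section. In the mean of both effects, a comparison chosen after seeing the data, Pou3f1 rose (1.17, SE 0.32, adjusted p = 0.0213) and Fzd2 fell (-0.77, SE 0.18, adjusted p = 0.0106), beside 13.7% of entries higher and 11.8% lower.

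Pou3f1 stood at 14.9 and 9.89 CPM with DMSO and at 40.6 and 11.9 CPM with 4OHT in Dux-Het (log2 fold change 1.11, SE 0.45, adjusted p = 0.153). In Dux-KO it stood at 18.9 and 11.6 CPM with DMSO and at 32.4 and 36.7 CPM with 4OHT (1.23, SE 0.45, adjusted p = 0.109), and this passed when either Dux-Het library with 4OHT was left out of the shared estimate of the spread (adjusted p of 0.0142 and 0.0153 by edgeR). Replicate 2 of Dux-Het with 4OHT was the exception, at a level between those of its DMSO controls, and the log2 fold change was 1.72 without it (adjusted p = 0.00877) and -0.05 without replicate 1. In the mean of both effects the call of Pou3f1 was lost in 4 fits that left out 1 library (adjusted p of 0.057 to 0.0833 by edgeR): replicate 1 of Dux-Het with 4OHT (log2 fold change 0.59 without it), replicate 2 of Dux-KO with DMSO, or either Dux-KO library with 4OHT. Fzd2 stood at 17.6 and 13.3 CPM with DMSO and at 10.6 and 6.84 CPM with 4OHT in Dux-Het (-0.81, SE 0.26, adjusted p = 0.0734). In Dux-KO it stood at 20.6 and 15.2 CPM with DMSO and at 9.62 and 11.4 CPM with 4OHT (-0.73, SE 0.25, adjusted p = 0.0962). Neither pair of groups overlapped, and the call on the mean was lost only without replicate 1 of Dux-KO with 4OHT (adjusted p = 0.0518).

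None of the other 7 genes passed in the mean of both effects. Zic2 stood at 41.9 and 32.6 CPM with DMSO and at 32.9 and 10.6 CPM with 4OHT in Dux-Het (-0.76, SE 0.38, adjusted p = 0.247), where replicate 2 was again the low library. Without replicate 1 of that group the log2 fold change was -1.80 and passed (adjusted p = 0.00227), and without replicate 2 it was -0.17. In Dux-KO it stood at 37.8 and 37.1 CPM with DMSO and at 28.9 and 36.6 CPM with 4OHT (-0.15, SE 0.38). These groups of Zic2 did not overlap, as those of Fzd2 did not, so a lack of overlap between groups of 2 libraries says little. In replicate 2 of Dux-Het with 4OHT, 7 of the 9 genes were lower than in replicate 1, Cdh2 was higher (16.9 against 8.70 CPM) and Sox4 was level (51.0 and 50.4 CPM). Of the 22 further formative and primed genes 1 rose and 6 fell in Dux-Het (median -0.47), and 1 rose and 3 fell in Dux-KO (median -0.43). Etv4 was the one that rose (1.12, SE 0.21, and 1.10, SE 0.21), and Fgf15 fell most (-1.74, SE 0.24, and -1.21, SE 0.24). Of 16 naive genes 4 fell and none rose in each genotype, Nanog among them (-0.65, SE 0.14, and -0.77, SE 0.14). Markers of other cell types moved in these libraries too, and their part in the results was not tested. Neural markers gave 1 rise and 2 falls of 8 in Dux-Het (134 to 157 CPM with DMSO and 96.4 to 122 CPM with 4OHT) and 1 rise and 1 fall in Dux-KO (147 to 177 CPM and 122 to 124 CPM), with Neurod1 higher (2.75, SE 0.38, and 3.14, SE 0.39) and Nes lower in both. Mesoderm and streak markers gave 2 falls of 8 in Dux-Het (14.1 to 20.5 CPM and 10.9 to 12.6 CPM) and 3 in Dux-KO (16.2 to 23.3 CPM and 9.47 to 11.3 CPM), led by T (-2.79, SE 0.44, and -3.23, SE 0.45) and Fgf8 (-2.93, SE 0.53, and -2.56, SE 0.50). Primitive endoderm markers gave 2 rises of 8 in Dux-Het (65.1 to 87.2 CPM and 82.0 to 111 CPM) and 1 in Dux-KO (82.9 to 104 CPM and 91.3 to 101 CPM), with Pdgfra higher in both. No gene of these 3 lists was at 0 in a whole group. In Dux-KO 1 of 8 fibroblast markers fell (149.5 to 190.5 CPM and 94.3 to 94.8 CPM, 1 at 0 in each group) and 1 of 6 neural crest markers rose (21.8 to 24.8 CPM and 21.8 to 25.3 CPM, 1 at 0 in each group). No other marker list had a gene past the threshold. Fgf5 differed more between replicates (3.42 and 1.08 CPM with 4OHT, 3.35 and 1.41 CPM with DMSO in Dux-Het) than between treatments (-0.06, SE 0.51). The remaining log2 fold changes, of Otx2, Sall2, Foxd3, Cdh2 and Sox4, ran from -0.31 to 0.02 in Dux-Het and from -0.58 to 0.21 in Dux-KO.

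Cdh2 was the only one of the 9 whose response to 4OHT passed the test of a difference between the sets without and with Dux labels. It stood at 14.2 and 13.3 CPM with DMSO and at 8.70 and 16.9 CPM with 4OHT in Dux-Het (-0.09, SE 0.27), and at 15.7 and 12.9 CPM with DMSO and 9.06 and 9.49 CPM with 4OHT in Dux-KO (-0.58, SE 0.27, adjusted p = 0.195). In the set without Dux labels it had risen. The 4OHT effect without Dux labels exceeded the mean effect with Dux labels by 1.64 (SE 0.27, adjusted p = 0.00532 by edgeR) in a fit of 18 libraries chosen after seeing the data, and the call held in all 21 alternative fits. In that fit 0.854% of 31020 entries were higher and 0.522% lower, and none of the other 8 genes passed. Without replicate 2 of Dux-Het with 4OHT, Sall2 (-0.69) and Zic2 (-0.67) passed as lower. Sets, cells and Dux genotype cannot be told apart in this contrast. The pair of the Dux series without a Dux label has no part in the contrast. In that pair, 1 library per treatment, Cdh2 was lower with 4OHT (7.55 CPM with DMSO, 4.78 CPM with 4OHT, log2 ratio -0.61). Of markers of other cell types, Nes (neural, 1.37, SE 0.27), Col4a1 (primitive endoderm, 1.05, SE 0.23), Vim (fibroblast, 1.28, SE 0.24), Ngfr (1.12, SE 0.22) and Ets1 (1.57, SE 0.32; both neural crest) passed in the same direction and none in the other. Their part in the result of Cdh2 was not tested.

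Dux genotype itself moved none of the 9 genes past the threshold. Under DMSO the log2 fold changes of Dux-KO against Dux-Het ran from -0.21 (Sall2) to 0.46 (Otx2), and of all entries 0% were higher and 0.0341% lower. Under 4OHT they ran from -0.46 (Cdh2) to 0.61 (Otx2), and 0.00341% of entries were higher and 0.273% lower. The difference of the 4OHT effects between Dux-KO and Dux-Het ran from -0.49 (Cdh2) to 0.61 (Zic2), with standard errors of 0.24 to 0.72, and 0% of entries passed in either direction by edgeR, where DESeq2 called 2 entries and 481 entries had an unadjusted p below 0.05. In these 3 comparisons none of the 9 genes had an unadjusted p below 0.05 or was called by DESeq2. Between the genotypes, 757 of 29322 entries under DMSO and 873 under 4OHT had such a p, and DESeq2 called 17 and 107. Leaving out replicate 1 of Dux-Het with 4OHT made 1 gene, Zic2, pass under 4OHT (1.64, adjusted p = 0.0173 by edgeR).

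In the pair without a Dux label each treatment is a single library, so no test was made, and the exact 95% intervals cover counting error only. Pou3f1 went from 6.71 CPM (5.92 to 7.58) with DMSO to 19.6 CPM (18.3 to 20.9) with 4OHT, a log2 ratio of 1.48 on the log2(CPM + 0.5) scale. Fgf5 went from 0.679 CPM (0.444 to 0.995, 26 counts) to 2.28 CPM (1.86 to 2.76, 102 counts), a log2 ratio of 1.24. On that scale these 2 genes were at least 2-fold higher and none was at least 2-fold lower, against 4.05% and 1.73% of 18801 entries with a mean of at least 1 CPM. Foxd3 went from 3.99 to 8.23 CPM (0.96, and 1.02 with a pseudocount of 0.1 CPM, which makes 3 genes past 2-fold), Sall2 from 12.6 to 19.0 CPM (0.58) and Otx2 from 28.9 to 37.6 CPM (0.38). Sox4 went from 39.5 to 44.0 CPM (0.15). Cdh2 went from 7.55 to 4.78 CPM (-0.61), Fzd2 from 9.92 to 8.35 CPM (-0.24) and Zic2 from 33.9 to 29.4 CPM (-0.20). Fgf5, Sall2 and Cdh2 thus lay on the other side of 0 from the 4 against 4 comparison, while Pou3f1, Foxd3, Zic2 and Fzd2 lay on the same side.

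Over the 22 libraries, with log2 levels centred within each of the 3 sets, the 9 genes formed no single pattern, and the correlations are given as a description of libraries that share treatment and depth. The highest Pearson r between 2 of them was 0.75, for Fgf5 with Sall2 and nearly so for Sall2 with Fzd2 (0.74), and the lowest was -0.41, for Zic2 with Cdh2. Otx2 with Zic2 had 0.67 and Pou3f1 with Foxd3 had 0.65. Pou3f1 with Foxd3 was similar within the 8 libraries without Dux labels (0.89) and the 10 of the Dux series (0.72). So was Zic2 with Fzd2 (0.82 and 0.73), but some other pairs were not. Otx2 with Zic2 had 0.12 and 0.81, Fgf5 with Foxd3 -0.87 and 0.85, and Fgf5 with Pou3f1 -0.76 and 0.76, so that a pooled value can hide sets of opposite sign. Among 18834 other entries, those most like Zic2 were Zic5 (0.92), the noncoding gene 2610035F20Rik (0.90) and Gm44450 (0.88). Zic5 lies 9757 bases and 2610035F20Rik 235 bases from Zic2 on chromosome 14, both on the other strand. The entry most like Sox4 was its overlapping partner Gm26735 (0.91), followed by Bach2 (0.85) and Nck2 (0.85). Pou3f1 was followed by H13 (0.95), Traf4 (0.93) and Nxn (0.93), and Fzd2 by Gm20721 (0.93), Gnas (0.92) and Plekhg2 (0.92). Cdh2 was followed by Vcl, a protein of adhesion sites (0.90), Col7a1 (0.89) and Gm28592 (0.89), and Foxd3 by Gas2l1 (0.88), Nrros (0.85) and Syn1 (0.83). Otx2 was followed by Pkd1l1 (0.86), Pcnx2 (0.82) and Dennd2d (0.80), Sall2 by Rcbtb2 (0.85), Hip1 (0.84) and Ndst1 (0.84), and Fgf5 by Irgm1 (0.82), Syt13 (0.81) and Idnk (0.81).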

How the data were processed

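The authors deposited 1 table of gene and repeat-family counts for 22 libraries of ribosome-depleted total RNA, not normalized. bcl2fastq, STAR 2.7, Bowtie2 and RSEM and the build mm10 are named in the submitters' processing notes, with no role given. Which tool counted, its treatment of reads shared between copies and its use of strand are not given in the sources used. All 22 columns were assigned to a group. Those of the set without Dux labels matched a group by name, not a single title. Of 44749 entries, 43672 matched a GENCODE vM21 symbol.

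Counts were tested with edgeR 4.0.16 (R 4.3.3; filterByExpr by group, TMM scaling, quasi-likelihood test), with Benjamini-Hochberg adjustment over all entries tested and a threshold of 0.05. The SE is the log2 fold change divided by the square root of F. Alternatives were no filter, DESeq2 size factors, DESeq2 1.42.0, genes without repeats, the replicate block and each library left out. The fit was tested on simulated counts. Levels are CPM after TMM over 22 libraries, per kb of exon between genes. In the set without Dux labels, same-numbered libraries deviated together (r of 0.331, 0.13, 0.359 and 0.34 over 10172 entries of at least 10 CPM). Libraries with different numbers were not compared in this way, so whether the numbers or the ESC lines pair them was not tested. Besides the 9 genes, the text could name, from each list, up to 3 genes with the largest called rise and up to 3 with the largest called fall, Pou5f1, Sox2, Nanog and Cdh1, and the 3 entries most like each member. Genes that overlap a member, the targeted genes and the markers beside Cdh2 were named after their values were seen. The members and lists were chosen with earlier results of these data known.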

Additional observations from a re-analysis of the deposited data

Results flagged for a closer look

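In the DMSO libraries without Dux labels, Pou3f1 had 1 library far from the other 3 (7.16 CPM against 9.25 to 9.32 CPM, a gap of 0.969 of the whole range). Fzd2 had another (26.0 CPM against 18.9 to 19.3 CPM, a gap of 0.938). Both gaps are above the 95% critical value of Dixon for 4 samples. Chance flags about 1 in 20 groups, and 18 were tested.

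The response of Cdh2 to 4OHT differed between the set without and the sets with Dux labels by 1.64 in log2 (edgeR, a comparison chosen after seeing the data). Between the 4OHT effect and the effect of the Mettl3 KO label, the log2 fold changes differed by -2.98 for Fgf5, 0.75 for Otx2, 0.94 for Pou3f1, -1.82 for Sall2, 1.33 for Cdh2 and -1.88 for Fzd2 by the same test.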

How the results depend on the processing

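With 4OHT in the set without Dux labels the 7 calls held in every alternative run, and Otx2 alone changed sign, between -0.074 and 0.17 with 1 library left out. Groups of 2 libraries limit all other comparisons.

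Without the filter on low counts, the number of the 9 genes higher was 2 for Mettl3 KO, 1 for Dux-Het, 1 for Dux-KO and 2 for the 4OHT effect without minus with Dux labels, and the number lower was 2 for Dux-Het, 1 for Dux-KO, 2 for the mean of both Dux effects and 2 for the effect without minus with Dux labels. Entries called were then 4319 (main 2738) in Dux-Het, 4701 (2890) in Dux-KO, 124 (10) for Dux-KO against Dux-Het under DMSO, 272 (81) under 4OHT, 28 (0) for the difference of the 4OHT effects and 1402 (427) for the effect without minus with Dux labels, where Pou3f1 was -0.011. With DESeq2, 1 gene was lower in Dux-Het (beside 3322 entries called) and 1 in Dux-KO (beside 3607). Entries called were 17 under DMSO, 2 for the difference of the 4OHT effects and 1043 without minus with Dux labels. With DESeq2 size factors and with DESeq2, Fgf5 was -0.0089 and -0.013 in Dux-KO, and Sox4 was -0.01385 and -0.01376 in the mean of both Dux effects. With gene entries alone Sox4 was 0.0083 in Dux-KO and Fgf5 0.0088 in the mean. In the pair without a Dux label, a pseudocount of 1 CPM left 1 gene at least 2-fold higher and one of 0.1 CPM gave 3. The cause of these shifts was not tested.

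With the replicate block, 5 genes were higher for Mettl3 KO, Fgf5 now among them (1.10, adjusted p = 0.0429 by edgeR), and 2 lower, with Zic2 added (-0.59, 0.0159). 1 was lower in Dux-Het (Fzd2, -0.81, 0.0284), and in Dux-KO 1 was higher (Pou3f1, 1.33, 0.0189) and 1 lower (Fzd2, -0.69, 0.0488). In these sets of 2 pairs the libraries share only a number. Under the block Fgf5 was 0.0089 in the mean of both Dux effects and 808 entries were called without minus with Dux labels. Besides Sox4, the block changed no call in the set without Dux labels. Correlations of same-numbered libraries were 0.0766 in the Mettl3 set, 0.545 in Dux-Het, 0.243 in Dux-KO, 0.412 between genotypes under DMSO and -0.198 under 4OHT; a crossed pairing there, chosen after seeing the data, called 79 of 26765 entries, against 125 as numbered and 74 with none.

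With 1 library left out, Mettl3 KO gave 0 to 6 genes higher, 0 to 3 lower and 351 to 9716 entries called, with Fgf5 from -0.15 to 2.09, Pou3f1 from -0.42 to 0.74 and Cdh2 from -0.53 to 0.37. Dux-Het gave 0 to 1 higher, 0 to 2 lower and 1254 to 2957 entries, with Fgf5 from -1.12 to 0.68, Otx2 from -0.88 to 0.13, Pou3f1 from -0.045 to 1.72, Sall2 from -0.73 to 0.0056, Foxd3 from -0.69 to 0.43, Cdh2 from -0.66 to 0.31 and Sox4 from -0.054 to 0.11. Dux-KO gave 0 to 1 higher and 423 to 3645 entries, with Fgf5 from -0.23 to 0.24, Otx2 from -0.31 to 0.0084, Sall2 from -0.0011 to 0.38, Foxd3 from -0.21 to 0.55 and Sox4 from -0.25 to 0.20. Dux-KO against Dux-Het gave 0 to 15 entries under DMSO, 30 to 97 entries and 0 to 1 genes higher under 4OHT, and 0 to 1 entries for the difference. The mean of both Dux effects gave 0 to 1 higher, 0 to 2 lower and 3892 to 7525 entries, with Fgf5 from -0.54 to 0.35, Sall2 from -0.26 to 0.092, Foxd3 from -0.27 to 0.30 and Sox4 from -0.12 to 0.10. The effect without minus with Dux labels gave 0 to 2 lower and 172 to 1120 entries, with Pou3f1 from -0.29 to 0.60 and Zic2 from -0.67 to 0.16. The Ythdc1 effect minus the Mettl3 effect gave 0 to 3 higher, with Zic2 from -0.66 to 0.21.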
